A study of Mus musculus with 32 samples.

Results

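The genes that carry fatty acids into cells, activate them and oxidise them were followed as a set of 39 genes, out of 55401 gene identifiers counted in the series. They were chosen by name, by matching identifiers to GRCm38 symbols, with earlier results of these data known. By the place of the step, 20 act in or on mitochondria, 5 in peroxisomes, and 14 at the plasma membrane, in the cytosol or in several compartments. The libraries come from C57BL/6 mice at 200 days of age in which a floxed Cox10 gene was deleted by Cre expressed from the Myl1 locus (COX10 KO), or from controls (CTL). COX10 takes part in making the haem that cytochrome c oxidase, the last enzyme of the respiratory chain, needs, and Cre from Myl1, a gene of fast skeletal muscle fibres, restricts the deletion to muscle, so that liver and hypothalamus keep the gene. Which of these alleles the CTL mice carry is not given in the sources used here. Transcripts were measured by 3′ RNA sequencing in 32 libraries: calf muscle (gastrocnemius with soleus) from 6 COX10 KO and 6 CTL mice, liver from 6 COX10 KO and 6 CTL mice, and hypothalamus from 4 COX10 KO and 4 CTL mice. By the labels, each muscle and liver group holds 3 females and 3 males and the hypothalamus libraries are all male, whereas the study's methods name males unless otherwise noted. The question asked of the set was how its mitochondrial and peroxisomal steps differ between genotypes in muscle and liver, with hypothalamus as a tissue of low fatty acid oxidation.

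A fatty acid is taken up at the plasma membrane with the help of CD36 and fatty acid transport proteins (SLC27 family), bound by fatty acid binding proteins in the cytosol, and joined to coenzyme A by acyl-CoA synthetases (ACSL family). Carnitine palmitoyltransferase 1, the carnitine carrier SLC25A20 and carnitine palmitoyltransferase 2 bring the acyl group into the mitochondrial matrix, where each round of β-oxidation takes it through a dehydrogenation, a hydration, another dehydrogenation and a thiolytic cleavage. The electrons of the first dehydrogenation pass to the respiratory chain through the electron transfer flavoprotein and its dehydrogenase. Peroxisomes run a parallel spiral with their own enzymes on very long, branched and dicarboxylic substrates. Liver and oxidative muscle rely heavily on these pathways, and neurons burn little fat. In liver and muscle many of the genes are targets of the nuclear receptor PPARα.

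Total counts per library were 1734571 to 11404800 (median 6027218) in COX10 KO muscle and 434494 to 8936522 (median 2453792) in CTL muscle, 674311 to 3197080 in COX10 KO liver and 1955599 to 16044634 in CTL liver, and 3526613 to 5684034 in COX10 KO hypothalamus and 4070847 to 22321322 in CTL hypothalamus. The shallowest were CTL muscle 2 and COX10 KO liver 3. Levels are given as CPM, the counts of a gene scaled to a common normalised library size within each tissue. Reads start at the 3′ end, so that counts do not grow with transcript length. Setting CPM of different genes side by side still assumes that their reads were counted equally well, which was not tested. The targeted gene was measured first: Cox10 averaged 113 ± 16.2 CPM in COX10 KO muscle and 109.8 ± 42.3 CPM in CTL muscle (SD, n = 6 each; log2 fold change 0.06 ± 0.23 SE, adjusted p = 0.907), so that the 3′ count of Cox10 did not separate the genotypes. Where the deleted part lies in the gene is not given in the sources used here, and a 3′ count outside it would not test the deletion. Myl1, from whose locus Cre is expressed, was lower in COX10 KO muscle (log2 fold change -1.06 ± 0.24 SE, adjusted p = 0.00836), with 5 of 6 COX10 KO libraries below every CTL library. Summed fibre markers (Acta1, Ckm, Ttn, Mb, Des, Myoz1) reached 32471 to 65251 CPM in COX10 KO muscle and 29254 to 80914 CPM in CTL muscle, summed hepatocyte markers 102268 to 217245 CPM in COX10 KO liver and 91308 to 149286 CPM in CTL liver, and summed neuronal markers 3487 to 4099 CPM in COX10 KO hypothalamus and 3573 to 5288 CPM in CTL hypothalamus. Libraries that stood apart were CTL muscle 2, where hepatocyte markers summed to 2563 CPM against at most 196 CPM in the other CTL muscle libraries and adipocyte markers to 2855 CPM against at most 615 CPM, COX10 KO muscle 4 (376 CPM of hepatocyte markers), and COX10 KO liver 6 (396 CPM of fibre markers). Xist and Y-linked counts went against the labelled sex in 2 libraries: CTL liver 1, labelled female, had 1746 Y-linked counts and 1 of Xist, and CTL liver 4, labelled male, had 450 of Xist and 0 Y-linked. Adjusted p-values judge a difference between groups against the spread between these libraries. In bulk tissue, fewer cells of a type cannot be told apart from less RNA per cell.

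Of the 39 genes, Cpt1b and Etfb are listed at 0 in all 32 libraries and could not be studied. Cpt1b encodes the carnitine palmitoyltransferase 1 of muscle and Etfb the β subunit of the electron transfer flavoprotein, which most cells use, so these zeros describe the count table and give no level of either gene. The annotation places other genes on the same strand within both loci (Gm44502 over Cpt1b, and Gm44816, Gm45233 and Mir7051 over Etfb), and these are listed at 0 as well. Genes on the same strand also overlap Acsl3, Acadl, Acad11, Hadhb, Decr1, Etfdh and Hsd17b4. What this did to their counts was not tested. Acaa1a and Acaa1b are near-identical copies. How the counting treated reads that match both is not given in the sources used here, so their separate levels and their sum are uncertain.

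In muscle, the question was whether the pathway's transcripts differ when the respiratory chain fails in that tissue. Of the 33 members with enough counts to be tested, 7 members passed the test, all with higher counts in COX10 KO muscle. They were the acyl-CoA synthetases Acsl1 and Acsl6, the inner membrane carnitine palmitoyltransferase Cpt2, the long-chain acyl-CoA dehydrogenase Acadl, the hydroxyacyl-CoA dehydrogenase Hadh, the trifunctional protein subunit Hadhb and the enoyl-CoA isomerase Eci2. None was lower. Over all 11636 genes tested, 6.9% were called higher and 7.43% lower, by an edgeR quasi-likelihood test with Benjamini-Hochberg adjustment. The median log2 fold change of the 33 members was 0.39, against -0.03 over all genes tested, and 25 of the 33 were above 0. By compartment, 4 of the 18 mitochondrial members tested were higher (Cpt2, Acadl, Hadh, Hadhb), 0 of 3 peroxisomal members (Decr2, Hsd17b4, Acaa1a) and 3 of 12 of the others. At an unadjusted p under 0.05 the count was 15 of 33 members, against 29.7% of all genes tested. The groups did not overlap for 5 members, Acsl1, Acsl6, Acadl, Echs1 and Eci2, each with its lowest COX10 KO library above its highest CTL library; this was true of 4.08% of all genes tested.

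**Figure D1:**
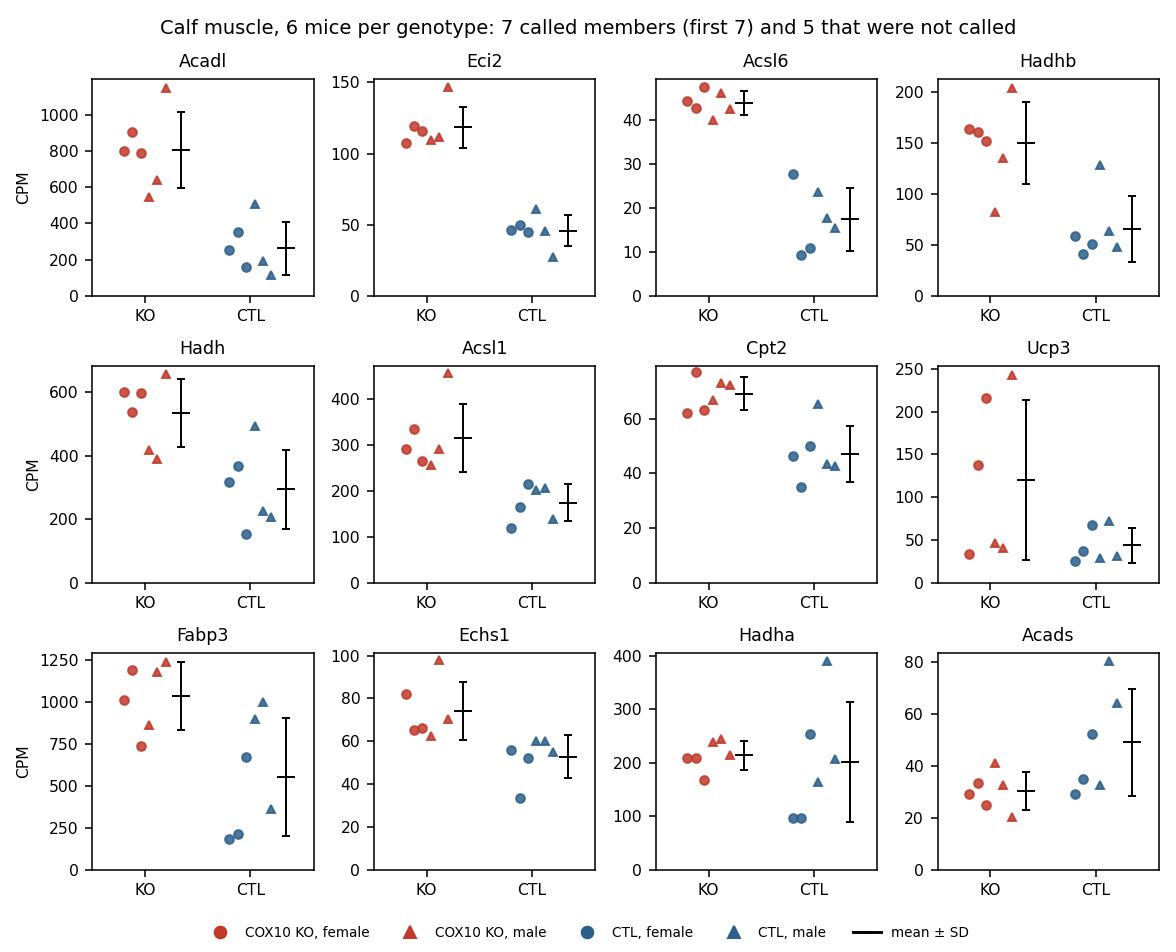
CPM (vertical axis, linear, from 0) of 12 members in the 6 COX10 KO and 6 CTL muscle libraries, circles for females and triangles for males by the labels, with the mean and SD of each group. For Acadl, Eci2, Acsl6, Acsl1 and Echs1 all COX10 KO points lie above all CTL points, while for Hadha the COX10 KO points lie within the CTL range.

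Promoter sequence is shown for members on which the muscle and tissue results turn. RefSeq (GRCm38.p6) gave windows from 250 bases before to 50 bases after the start for 33 of the 39 members, 38 windows in all. Hadhb comes first because it and Hadha start head to head: capitals mark the 228 bases of its window that also lie, on the other strand, in the window of Hadha, the pair of which only Hadhb passed the test in muscle. In Acadl and Eci2, which had the largest log2 fold changes of the 7, capitals mark GC boxes (GGGCGG or its reverse complement CCGCCC, the motif bound by SP1). In Acsl6 they mark the reverse complement of TCAAGGTCA, the element bound by oestrogen-related receptors (ERR), and in Fabp1 the reverse complement of AGGNCANAGGNCA, a relaxed form of the direct repeat that PPAR binds.
Hadhb, chr5:30155003-30155302, plus strand: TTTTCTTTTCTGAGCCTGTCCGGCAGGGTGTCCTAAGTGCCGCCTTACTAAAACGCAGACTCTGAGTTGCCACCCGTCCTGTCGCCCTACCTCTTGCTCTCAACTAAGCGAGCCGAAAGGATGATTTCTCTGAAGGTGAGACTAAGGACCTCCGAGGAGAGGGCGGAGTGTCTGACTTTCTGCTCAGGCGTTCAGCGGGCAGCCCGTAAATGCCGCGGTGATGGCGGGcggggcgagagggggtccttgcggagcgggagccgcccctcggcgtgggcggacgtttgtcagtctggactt
Acadl, chr1:66863260-66863559, minus strand: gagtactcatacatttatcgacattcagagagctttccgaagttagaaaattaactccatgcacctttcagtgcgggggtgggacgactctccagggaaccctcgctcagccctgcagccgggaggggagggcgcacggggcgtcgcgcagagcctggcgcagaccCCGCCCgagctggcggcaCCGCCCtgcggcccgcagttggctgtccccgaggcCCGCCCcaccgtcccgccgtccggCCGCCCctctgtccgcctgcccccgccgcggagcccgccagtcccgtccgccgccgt
Eci2, chr13:34994095-34994394, minus strand: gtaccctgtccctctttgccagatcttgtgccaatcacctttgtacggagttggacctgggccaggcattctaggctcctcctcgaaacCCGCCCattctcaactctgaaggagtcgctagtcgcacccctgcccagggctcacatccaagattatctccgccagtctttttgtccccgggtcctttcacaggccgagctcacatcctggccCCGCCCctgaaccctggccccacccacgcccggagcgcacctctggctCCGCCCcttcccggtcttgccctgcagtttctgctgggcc
Acsl6, chr11:54303574-54303873, plus strand: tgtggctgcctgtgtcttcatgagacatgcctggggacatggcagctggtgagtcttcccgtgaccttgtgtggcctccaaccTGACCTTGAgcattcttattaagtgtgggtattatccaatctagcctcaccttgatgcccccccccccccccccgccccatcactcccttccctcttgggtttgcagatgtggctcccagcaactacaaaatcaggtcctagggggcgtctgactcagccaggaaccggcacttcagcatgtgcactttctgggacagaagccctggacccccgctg
Fabp1, chr6:71199629-71199928, plus strand: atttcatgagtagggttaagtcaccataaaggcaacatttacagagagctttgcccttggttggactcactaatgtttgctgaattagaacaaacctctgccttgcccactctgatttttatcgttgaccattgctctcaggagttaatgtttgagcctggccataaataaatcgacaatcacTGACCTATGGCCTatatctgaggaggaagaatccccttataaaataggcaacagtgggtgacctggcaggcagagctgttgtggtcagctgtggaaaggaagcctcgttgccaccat

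The GC box was found in 24 of the 33 member genes with a window (27 of 38 windows, 71.1%), among them all 7 that were higher in COX10 KO muscle, and in 35.7% of all 32851 promoters of the table. The strict direct repeat AGGTCANAGGTCA was in no member window and in 0.0396% of all promoters. Its relaxed form was in 1 member window (Fabp1) and in 0.381% of all, and the ERR element in 1 (Acsl6) and 0.423%. The amino acid response motif TGATGNAA, bound by ATF4 with C/EBP proteins, was in the windows of Echs1 and Fabp3 and in 3.97% of all. Both strands were searched. A match only says that the letters occur in the window.

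The synthetases prepare fatty acids for every later step. Acsl1 (ENSMUSG00000018796.13, chromosome 8, 46471037 to 46536051, plus strand of GRCm38), the main long-chain synthetase of muscle, liver and fat, had 256 to 456 CPM (median 292) in COX10 KO muscle, against 119 to 215 CPM (median 184) in CTL muscle. Every COX10 KO library was above every CTL library (log2 fold change 0.86 ± 0.20 SE, adjusted p = 0.012). An exact permutation p of 0.00216 (two-sided, unadjusted) only restates this lack of overlap. It is the smallest that 6 against 6 libraries can give. Acsl6 (ENSMUSG00000020333.17, chromosome 11, 54303798 to 54364756, plus strand), a synthetase best known from brain, stood at 40 to 47.4 CPM (median 43.4) in COX10 KO muscle, against 9.23 to 27.6 CPM (median 16.5) in CTL muscle, again with no overlap (log2 fold change 1.25 ± 0.23 SE, adjusted p = 0.00255). Both calls were lost in the fits of single sexes, with 3 mice per group (adjusted p = 0.15 in females and 0.147 in males for Acsl1, 0.0763 and 0.0586 for Acsl6), and in no other alternative. The other synthetases did not pass. Acsl3 had 5.48 to 11.8 CPM in COX10 KO muscle and 6.74 to 24 CPM in CTL muscle (log2 fold change -0.70 ± 0.31 SE, adjusted p = 0.145), and Acsl5 3.24 to 7.87 CPM and 4.04 to 12.9 CPM in the same order (log2 fold change 0.01 ± 0.33 SE, adjusted p = 0.993). Acsl1 made up 83.9 ± 3.03% of the summed CPM of the 4 synthetases in COX10 KO muscle and 81 ± 5.14% in CTL muscle, and Acsl6 12 ± 2.16% and 8.6 ± 4.81% (SD, n = 6 each).

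Of the 4 uptake genes tested, none passed. Fabp3, the fatty acid binding protein of heart and muscle, was the most abundant member in muscle, with 738 to 1241 CPM (median 1098) in COX10 KO muscle and 183 to 999.8 CPM (median 518) in CTL muscle. COX10 KO muscle 3 and 4 lay below CTL muscle 4 and 5, and the other 4 libraries of each genotype did not overlap (log2 fold change 1.00 ± 0.34 SE, adjusted p = 0.0636). Without CTL muscle 3 or CTL muscle 4, Fabp3 would have been called (adjusted p = 0.039 and 0.0451), as it was under DESeq2 (0.0289) and with no expression filter (0.000854). CTL muscle 4 and 5 also had the most slow-fibre marker counts, 7908 and 17281 CPM summed over 7 genes, against at most 1341 CPM in the other CTL libraries. Cd36, the scavenger receptor that takes up long-chain fatty acids, had 90.2 to 309 CPM in COX10 KO muscle and 63.8 to 199 CPM in CTL muscle (log2 fold change 0.56 ± 0.30 SE, adjusted p = 0.227). Slc27a1, the transport protein of muscle and fat, had 8.69 to 25.4 CPM and 6.29 to 29.5 CPM (log2 fold change -0.09 ± 0.32 SE, adjusted p = 0.889). Fabp1, the liver binding protein, was counted at 0.81 to 23.3 CPM in COX10 KO muscle, with its highest value in library 4, and at 0.911 to 212 CPM in CTL muscle, with its highest value in library 2. Those are the libraries with the most hepatocyte marker counts of their groups. The log2 fold change was -1.98 (adjusted p = 0.409) with all libraries and 0.51 without CTL muscle 2, and with all libraries and no expression filter Fabp1 passed as lower (2.13e-05). Slc27a2 and Slc27a5, the transport proteins of liver, were too low to be tested, with at most 1.88 and 1.54 CPM in COX10 KO muscle and 14.8 and 9.23 CPM in CTL muscle, with the highest values in COX10 KO library 4 and CTL library 2.

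At the carnitine step, Cpt2 (ENSMUSG00000028607.16, chromosome 4, 107903981 to 107923610, minus strand), which releases the acyl group inside the inner membrane, had 62.1 to 77.2 CPM (median 69.5) in COX10 KO muscle and 35.1 to 65.5 CPM (median 44.9) in CTL muscle. CTL muscle 4 reached into the COX10 KO range, and the other 5 CTL libraries lay below it (log2 fold change 0.53 ± 0.17 SE, adjusted p = 0.0436; 1.45-fold). This is the least stable of the 7 calls: it was lost when CTL muscle 1, 3, 5 or 6 or any 1 of the 6 COX10 KO libraries was left out (adjusted p = 0.0513 to 0.111), and with no expression filter (0.0899). Slc25a20, the carnitine-acylcarnitine carrier, had 46.2 to 96.4 CPM (median 61.8) in COX10 KO muscle and 27.8 to 50.2 CPM (median 47.4) in CTL muscle, with 5 of 6 COX10 KO libraries above all CTL libraries (log2 fold change 0.59 ± 0.21 SE, adjusted p = 0.0704), and passed only without COX10 KO muscle 4 (0.0365), under DESeq2 (0.04997), without the sex term (0.0491) and with at least 10 counts required in every library (0.0474). Cpt1a, the outer membrane transferase of liver, was low in muscle, at 6.56 to 15.8 CPM in COX10 KO and 3.82 to 16.6 CPM in CTL libraries (log2 fold change 0.47 ± 0.37 SE, adjusted p = 0.427). Crat, the carnitine acetyltransferase, had 81.2 to 119 CPM in COX10 KO muscle and 42.4 to 117 CPM in CTL muscle (adjusted p = 0.69), and Slc22a5, the plasma membrane carnitine transporter, 0 to 2.3 CPM and 0.674 to 4.55 CPM (0.509).

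Among the acyl-CoA dehydrogenases, 1 of 6 passed. Acadl (ENSMUSG00000026003.5, chromosome 1, 66830839 to 66863277, minus strand), the long-chain enzyme, had 545 to 1147 CPM (median 794) in COX10 KO muscle and 115 to 506 CPM (median 220.3) in CTL muscle, with no overlap (log2 fold change 1.62 ± 0.32 SE, adjusted p = 0.0042; 3.07-fold, the largest increase among the 33 members). In males alone it did not pass (adjusted p = 0.129). Acadvl, the very-long-chain enzyme of the inner membrane, had 213 to 299 CPM in COX10 KO muscle and 107 to 305 CPM in CTL muscle (log2 fold change 0.39 ± 0.23 SE, adjusted p = 0.266), and Acadm, the medium-chain enzyme, 63 to 267 CPM and 89.5 to 224 CPM (log2 fold change 0.02 ± 0.28 SE, adjusted p = 0.971). Acads, the short-chain enzyme, had 20.1 to 41.2 CPM (median 30.8) in COX10 KO muscle and 29 to 80.6 CPM (median 43.7) in CTL muscle, with COX10 KO muscle 3 and 6 the lowest of all and library 1 level with the lowest CTL library (log2 fold change -0.67 ± 0.25 SE, adjusted p = 0.0892), and passed as lower only when CTL muscle 4 was left out (adjusted p = 0.0377). Acad10 and Acad11, less studied members of the family, had 4.99 to 6.65 CPM and 12.3 to 37.8 CPM in COX10 KO muscle, against 5.3 to 10.9 CPM and 23 to 60.9 CPM in CTL muscle, with log2 fold changes of -0.55 (adjusted p = 0.156) and -0.47 (0.307).

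Of the 5 later enzymes of the mitochondrial spiral, 2 were higher, Hadh and Hadhb. Hadhb (ENSMUSG00000059447.13, chromosome 5, 30155248 to 30184593, plus strand), the thiolase-bearing β subunit of the trifunctional protein, had 81.6 to 204 CPM (median 156) in COX10 KO muscle and 40.6 to 129 CPM (median 55) in CTL muscle. CTL muscle 4 (129 CPM) was the only CTL library within the COX10 KO range, and COX10 KO muscle 4 (81.6 CPM) the lowest of its group (log2 fold change 1.20 ± 0.28 SE, adjusted p = 0.0101). The call was lost in males alone (adjusted p = 0.299). Its partner Hadha, the α subunit that carries the hydratase and long-chain hydroxyacyl dehydrogenase activities, had 168 to 245 CPM (median 211) in COX10 KO muscle and 95.7 to 391 CPM (median 185) in CTL muscle, the COX10 KO range lying within the CTL range (log2 fold change 0.13 ± 0.27 SE, adjusted p = 0.805, 95% interval -0.45 to 0.70). The difference between the changes of both subunits was not tested. Hadh (ENSMUSG00000027984.8, chromosome 3, 131233419 to 131272101, minus strand), the dehydrogenase for medium and short hydroxyacyl chains, had 391 to 659 CPM (median 569) in COX10 KO muscle and 152 to 493 CPM (median 272) in CTL muscle, with CTL muscle 4 among the COX10 KO values (log2 fold change 0.86 ± 0.26 SE, adjusted p = 0.0407). Leaving out CTL muscle 1, 3, 5 or 6 or COX10 KO muscle 1, 2, 3 or 6 ended this call (adjusted p = 0.0626 to 0.0965), as did either sex alone (0.113 in females, 0.344 in males). Echs1, the short-chain enoyl-CoA hydratase, had 62.3 to 98.2 CPM in COX10 KO muscle and 33.2 to 60.1 CPM in CTL muscle, which did not overlap, yet did not pass (log2 fold change 0.47 ± 0.18 SE, adjusted p = 0.0829) except with at least 10 counts in every library (0.0434). Acaa2, the mitochondrial thiolase, had 229.9 to 332 CPM and 102 to 359.8 CPM (log2 fold change 0.44 ± 0.24 SE, adjusted p = 0.237).

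Unsaturated fatty acids need isomerases and reductases before they can re-enter the spiral. Eci2 (ENSMUSG00000021417.15, chromosome 13, 34977748 to 35027096, minus strand), an enoyl-CoA isomerase found in both mitochondria and peroxisomes, had 108 to 147 CPM (median 114) in COX10 KO muscle and 27.3 to 61.3 CPM (median 45.9) in CTL muscle, with no overlap and the smallest p of the 33 members (log2 fold change 1.37 ± 0.19 SE, adjusted p = 0.000325; 2.58-fold). It was the only one of the 7 that passed in every alternative tried, single sexes included. Eci1, the mitochondrial isomerase, was at 54.2 to 207 CPM in COX10 KO muscle and 67.1 to 110.5 CPM in CTL muscle (log2 fold change 0.45 ± 0.25 SE, adjusted p = 0.241), and Decr1, the mitochondrial dienoyl-CoA reductase, at 81.3 to 116 CPM and 42.4 to 119 CPM (log2 fold change 0.26 ± 0.19 SE, adjusted p = 0.379). Decr2, the peroxisomal reductase, had 17.8 to 30.7 CPM (median 24.4) in COX10 KO muscle and 7.29 to 38.7 CPM (median 10.8) in CTL muscle, where library 2 alone held 38.7 CPM (log2 fold change 0.79 ± 0.32 SE, adjusted p = 0.107). Without that library Decr2 passed (log2 fold change 1.08, adjusted p = 0.0138), and 8 members were then higher in place of 7.

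The other peroxisomal members were scarce in muscle or did not pass. Hsd17b4, the bifunctional enzyme of the peroxisomal spiral, had 26.7 to 55.1 CPM in COX10 KO muscle and 20.5 to 49.8 CPM in CTL muscle (log2 fold change 0.37 ± 0.22 SE, adjusted p = 0.282). Acaa1a, a peroxisomal thiolase, had 7.47 to 11.6 CPM and 9.23 to 19.1 CPM (log2 fold change -0.41 ± 0.23 SE, adjusted p = 0.255), and its copy Acaa1b at most 4.11 and 22.1 CPM. Ehhadh, the inducible bifunctional enzyme, had 3 counts over the 6 COX10 KO libraries and 15 over the 6 CTL libraries. The ratio of these summed counts per library size was 0.107 (95% Clopper-Pearson interval 0.0198 to 0.378, for counting error only). It was too low for the edgeR filter and was called lower by DESeq2 (adjusted p = 0.0283). At the end of the pathway, Etfa, the α subunit of the electron transfer flavoprotein, had 50.1 to 170.4 CPM in COX10 KO muscle and 89.9 to 131 CPM in CTL muscle, with a log2 fold change of 0.06 (95% interval -0.42 to 0.54). Etfdh, which passes its electrons to ubiquinone, had 12 to 73.4 CPM and 25.1 to 46.1 CPM, with a log2 fold change of 0.15 (-0.60 to 0.91). Ucp3, an inner membrane carrier of muscle related to the uncoupling protein of brown fat, had 34 to 243 CPM (median 92.4) in COX10 KO muscle and 24.9 to 72 CPM (median 34.3) in CTL muscle. COX10 KO libraries 2, 3 and 6 were above all CTL libraries and libraries 1, 4 and 5 were within their range (log2 fold change 1.46 ± 0.49 SE, adjusted p = 0.0559). Leaving out CTL muscle 5 or COX10 KO muscle 1, 4 or 5 brought it past the threshold (adjusted p = 0.0263 to 0.0492). With all libraries it also passed under DESeq2 with the sex term (0.0216) or without it (0.0166). In edgeR it passed without the sex term (0.0422) and with no expression filter (8.93e-09).

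Cell type markers moved with genotype beside these values. Fast-fibre markers (7 genes) summed to 33409.6 to 61220 CPM (median 41128) in COX10 KO muscle and 43458 to 137776 CPM (median 87614) in CTL muscle, and 5 of the 7 were called lower. Slow-fibre markers (7 genes) had 0 calls, with sums of 1065 to 5376 CPM and 343 to 17281 CPM. Macrophage markers summed to 207 to 494 CPM in COX10 KO muscle and 106 to 323 CPM in CTL muscle, with 3 of 7 higher (Cd68, C1qa, Lyz2). Of the fibre, fibroblast, neuronal and astrocytic lists, 1 of 6, 1 of 6, 1 of 3 and 2 of 4 genes tested were lower (Ttn, Col1a2, Syt1, and Slc1a3 with Aqp4), and no endothelial, adipocyte or hepatocyte gene was called. Neuronal markers summed to at most 14.4 CPM in COX10 KO and 51.7 CPM in CTL muscle, and astrocytic markers to at most 31.7 and 122 CPM. The names of these lists do not show that such cells were present in muscle. No hypothalamic marker had enough counts to be tested. The part of fibre type and of other cells in the members' values was not tested.

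Other genes of the pathway, from lists put together by function, were read in the same fit. Of 12 tested genes of uptake and activation outside the set, 2 were higher: Acot2, a mitochondrial acyl-CoA thioesterase, at 187 to 3150.2 CPM in COX10 KO muscle and 35.5 to 196 CPM in CTL muscle (log2 fold change 3.87), and Got2, the mitochondrial aspartate aminotransferase once described as a fatty acid binding protein of the plasma membrane (0.90). Of 10 further mitochondrial oxidation genes, 0 were called in either direction. Of 12 further peroxisomal genes, 3 were higher: Acox2, the branched-chain acyl-CoA oxidase (20.5 to 46.9 CPM in COX10 KO muscle and 0 to 3.69 CPM in CTL muscle, log2 fold change 6.84), Cat, catalase (0.93), and Phyh, which starts the α-oxidation of phytanic acid (0.74). Of 17 regulators, Mlycd, which breaks down the CPT1 inhibitor malonyl-CoA, was higher (1.17), and the nuclear receptors Rxra (-0.74) and Nr1h3 (-0.96) were lower. Of 8 tested PPAR targets outside the pathway, 1 was higher, Pdk4, the kinase that shuts off pyruvate oxidation (2.61).

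In liver, which keeps Cox10, the question was whether the same genes differ away from the tissue that lost it. No member passed: 0 of 33 tested were higher or lower in COX10 KO liver by edgeR, and also under every alternative run, DESeq2 included. Few genes of any kind did, 0.0206% of 9707 higher and 0.0721% lower. At an unadjusted p under 0.05 there were 2 members, Acaa1a and Acads, a share near the 4.98% over all genes tested. Of the 33 fitted values 27 were above 0, with a median log2 fold change of 0.47 against -0.02 over all genes tested. The median was 1.03 for the 5 peroxisomal members, 0.47 for the 17 mitochondrial members tested, and 0.11 for the 11 others. COX10 KO liver 3, the shallowest liver library, had the highest counts of Acaa1b, Acaa1a, Ehhadh, Acads and Acaa2. Without it, 28 of 33 values were above 0 with a median of 0.42, and the medians were 0.51 for the peroxisomal members, 0.42 for the mitochondrial members and 0.20 for the others, so that most of the distance between compartments went with that library. In the same fit 1 member, the medium-chain dehydrogenase Acadm, was at an unadjusted p under 0.05 (log2 fold change 0.95, and 0.72 with all libraries; 5.25% of all genes).

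**Figure D2:**
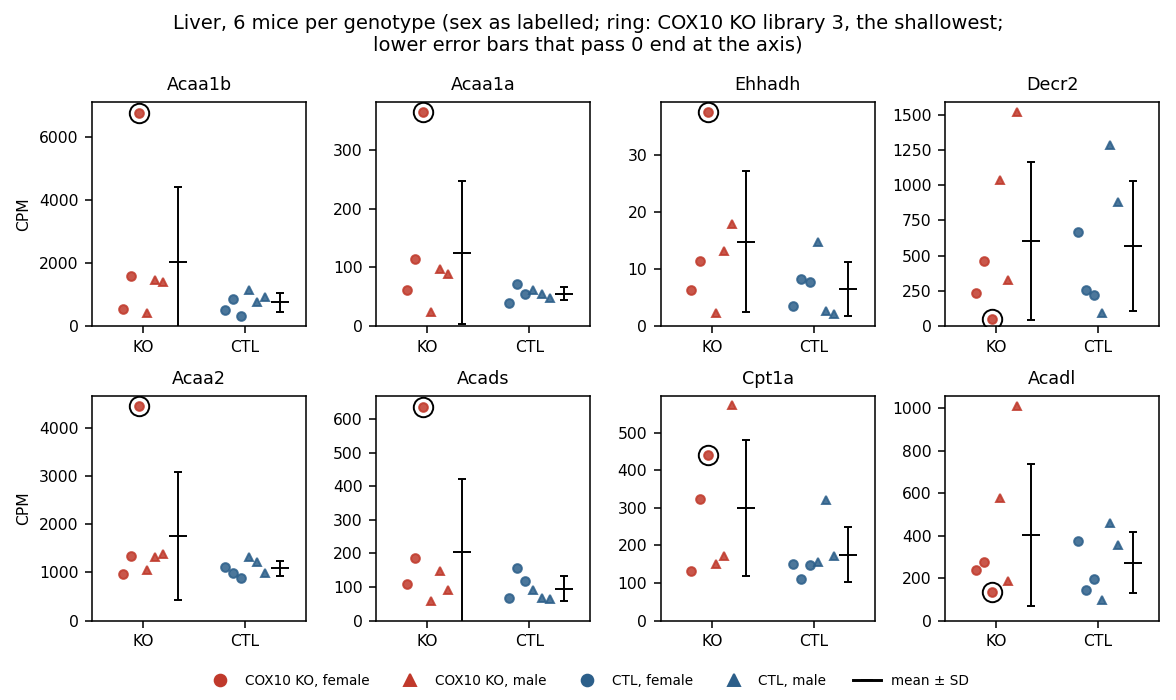
CPM (vertical axis, linear, from 0) of 8 members in the 6 COX10 KO and 6 CTL liver libraries, circles for females and triangles for males as labelled, with the mean and SD of each group and SD bars ending at 0 where they would pass it. The ringed point is COX10 KO liver 3, the highest for Acaa1b, Acaa1a, Ehhadh, Acaa2 and Acads and the lowest for Decr2.

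The peroxisomal thiolases gave the widest ranges. Acaa1b had 407 to 6786 CPM (median 1424) in COX10 KO liver and 306 to 1146 CPM (median 824) in CTL liver. The highest COX10 KO value was library 3, and the other 5 lay between 407 and 1589 CPM, across most of the CTL range (log2 fold change 1.30 ± 0.64 SE, adjusted p = 0.997, 95% interval -0.06 to 2.66; 0.53 without library 3). Acaa1a had 24 to 365 CPM (median 92.8) in COX10 KO liver and 39.3 to 71.3 CPM (median 55.1) in CTL liver (log2 fold change 1.03 ± 0.46 SE, adjusted p = 0.947; 0.51 without library 3). Acaa1b supplied 93.4 ± 1.85% of the summed Acaa1a and Acaa1b counts in COX10 KO liver and 92.2 ± 3.84% in CTL liver (SD, n = 6 each). Ehhadh was low in liver, at 2.29 to 37.6 CPM (median 12.3) in COX10 KO and 2.2 to 14.8 CPM (median 5.55) in CTL libraries, also highest in COX10 KO library 3 (log2 fold change 1.15 ± 0.59 SE, adjusted p = 0.997). Hsd17b4 (31.1 to 684 CPM in COX10 KO and 116 to 347 CPM in CTL liver) and Decr2 (47.5 to 1518 CPM and 89.2 to 1283 CPM) had log2 fold changes of 0.14 and -0.13.

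Cpt1a, the transferase that sets the rate of fat entry into liver mitochondria, had 133 to 574 CPM (median 249) in COX10 KO liver and 109.6 to 321 CPM (median 153) in CTL liver, with 3 COX10 KO libraries above all CTL libraries (log2 fold change 0.80 ± 0.40 SE, adjusted p = 0.997, 95% interval -0.04 to 1.65). Hadha had 108 to 761 CPM (median 286) in COX10 KO liver and 127 to 286 CPM (median 194) in CTL liver, with COX10 KO libraries 2, 3 and 6 above all CTL libraries (log2 fold change 0.76 ± 0.36 SE, adjusted p = 0.997). Acads had 57.8 to 637 CPM (median 128) in COX10 KO liver and 64.7 to 157 CPM (median 79.7) in CTL liver, with the highest value again in COX10 KO library 3 (log2 fold change 0.92 ± 0.43 SE, adjusted p = 0.997; 0.39 without it). Acaa2 had 963 to 4462 CPM (median 1326) in COX10 KO liver and 893 to 1312 CPM (median 1055) in CTL liver, and its log2 fold change was 0.63 with and 0.15 without that library. None of the 7 genes that were higher in COX10 KO muscle passed in liver. Acsl1 had 361 to 906 CPM in COX10 KO liver and 429 to 629 CPM in CTL liver (log2 fold change 0.11 ± 0.28 SE, adjusted p = 0.997). The values for Acadl, Eci2, Hadhb, Cpt2 and Hadh were 0.41, 0.56, 0.58, 0.41 and -0.0026 on the log2 scale, and Acsl6 had too few counts. Fabp1, the most abundant member in liver by median, had 1313 to 12401 CPM (median 3577) in COX10 KO liver and 2543 to 10253 CPM (median 5620.4) in CTL liver (log2 fold change -0.41 ± 0.43 SE, adjusted p = 0.997). Of the other uptake genes, Slc27a2 had 159 to 564 CPM and 76 to 294 CPM, Slc27a5 349 to 799 CPM and 281 to 748 CPM, and Cd36 11.5 to 41.4 CPM and 15.4 to 82 CPM, in COX10 KO and CTL liver, all overlapping. The remaining 14 members tested had log2 fold changes from -0.26 to 0.91. Fabp3 and Ucp3 reached their highest liver counts, 10.9 and 2.1 CPM, in COX10 KO liver 6, the library with the most fibre marker counts. No gene of the further lists was called in liver. The PPAR targets outside the pathway had the largest median log2 fold change, 1.22 over 12 genes, with Cyp4a14 at 2.90 (adjusted p = 0.189) and Cyp4a10 at 2.39 (0.242), both fatty acid ω-hydroxylases. The medians of the other lists were 0.25 for 14 uptake and activation genes, 0.0017 for 10 mitochondrial genes, -0.17 for 13 peroxisomal genes and 0.11 for 18 regulators. Macrophage markers summed to 137 to 455 CPM in COX10 KO liver and 229 to 964 CPM in CTL liver, with 0 of 7 called.

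Whether the genotype difference itself differed between muscle and liver was tested in a joint fit, as the muscle log2 fold change minus the liver one. None of 37 members passed, and 8 were at an unadjusted p under 0.05, against 18% of all genes tested, a share near that of the members. Over all 11661 genes tested, 1.02% were called with a higher and 0.986% with a lower value in muscle. The smallest p was that of Ehhadh (log2 fold change -4.04 ± 1.16 SE, adjusted p = 0.0664), with 3 counts in all in COX10 KO muscle, which makes the size of its fitted value uncertain. It passed under DESeq2 (adjusted p = 0.00757), with no filter (0.0031), without the sex term (0.0428), with the sex of liver libraries read from their transcripts (0.0232), without the 2 mismatched libraries (0.0368), and without CTL liver 4 (0.0205), COX10 KO liver 4 (0.0393) or CTL muscle 1 (0.0441). Acads (log2 fold change -1.55 ± 0.51 SE, adjusted p = 0.108) passed under DESeq2 (0.0469) and with no filter (0.0484). Its log2 fold change was -0.67 in muscle and 0.92 in liver, the second of which was 0.39 without COX10 KO liver 3. The other differences at an unadjusted p under 0.05 were Acad10 (-0.90), Acaa1a (-1.40), Slc27a1 (-1.85) and Acad11 (-1.10), lower in muscle, and Eci2 (0.81) and Acsl1 (0.73), higher in muscle, with adjusted p from 0.136 to 0.273. So the 7 genes called in muscle are not shown to differ from liver in their genotype effect.

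**Figure D3:**
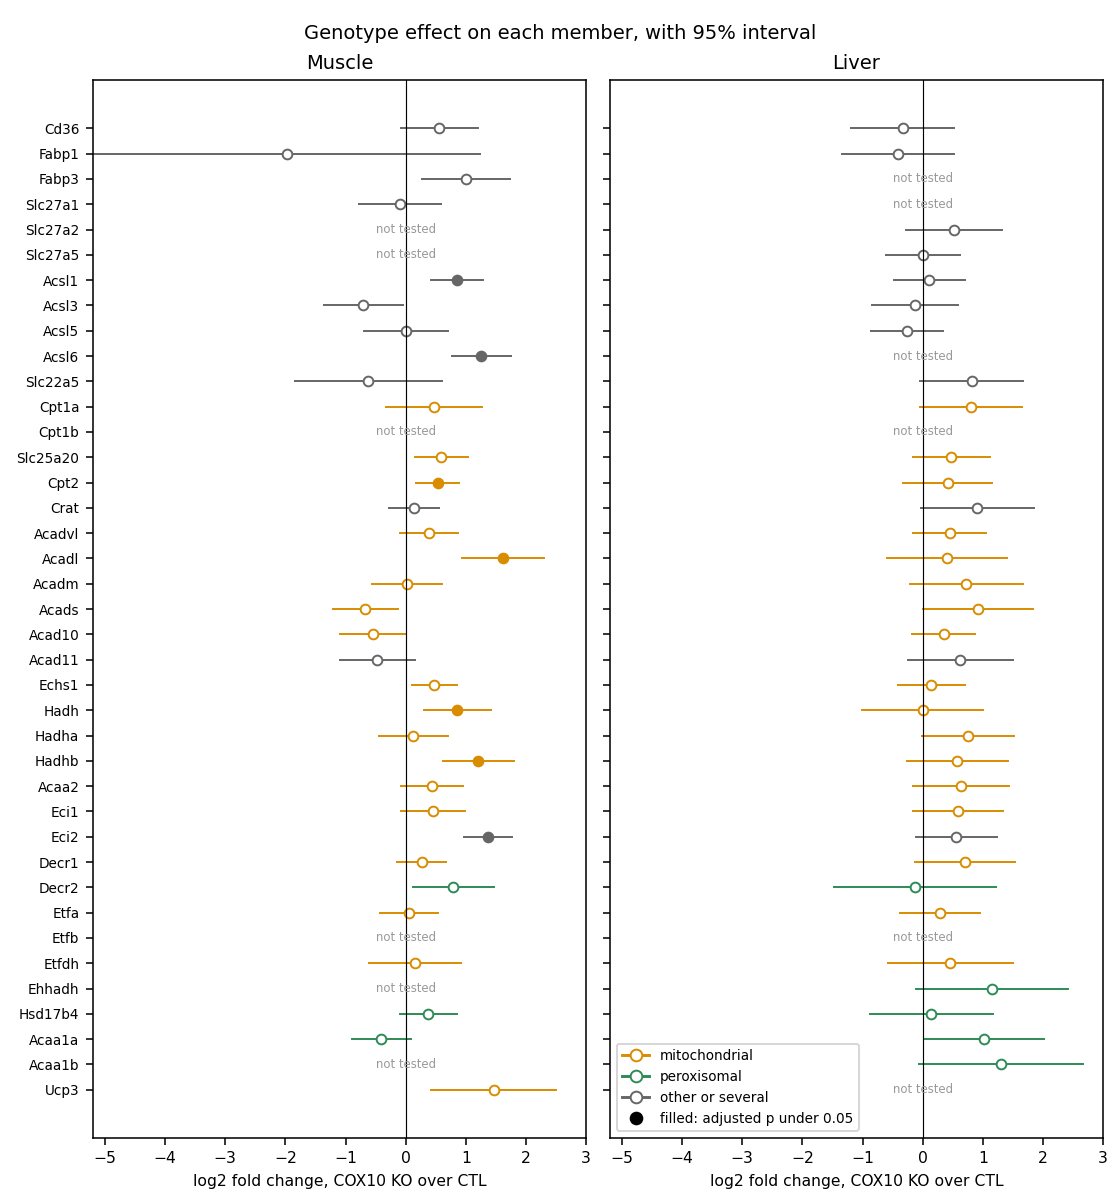
Log2 fold change of COX10 KO over CTL (horizontal axis) of each member in muscle, left, and liver, right, with its 95% interval from the same fit, coloured by compartment. Filled points passed the test: 7 in muscle, all right of 0, and none in liver, where 27 of 33 points lie right of 0.

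Summed over compartments, the mitochondrial members were abundant in both peripheral tissues and the peroxisomal members in liver. In muscle, the 20 mitochondrial members summed to 2459 to 3937 CPM (median 3269) in COX10 KO libraries and 1485 to 2575 CPM (median 1827) in CTL libraries, and the 5 peroxisomal members to 66.7 to 87.3 CPM and 42.8 to 122 CPM. In both genotypes the peroxisomal sum was a small fraction of the mitochondrial sum. The peroxisomal share of both sums was 2.49 ± 0.252% in COX10 KO muscle and 3.54 ± 1.53% in CTL muscle (SD, n = 6 each), and the highest CTL value, 6.3%, came from library 2. In liver the mitochondrial sum was 3659.6 to 8559 CPM (median 4738) in COX10 KO and 3086 to 4584 CPM (median 3717) in CTL libraries, the peroxisomal sum 1057 to 7268 CPM (median 2218) and 712 to 2466 CPM (median 1512), and the peroxisomal share 32.9 ± 7.75% and 29.3 ± 6.4%. By median, Acaa1b was the largest part of the liver peroxisomal sum. In hypothalamus the mitochondrial sum was 366 to 381 CPM in COX10 KO and 370.4 to 411 CPM in CTL libraries, the lowest of the tissues, and the peroxisomal share was 20.9 ± 2.15% and 22.4 ± 4.94% (SD, n = 4 each). Cpt1b and Etfb, listed at 0 in every library, are among the 20 mitochondrial members and add nothing to these sums. Any counts of these genes would raise the mitochondrial sums and lower the peroxisomal shares. The sums are descriptions and were not tested.

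**Figure D4:**
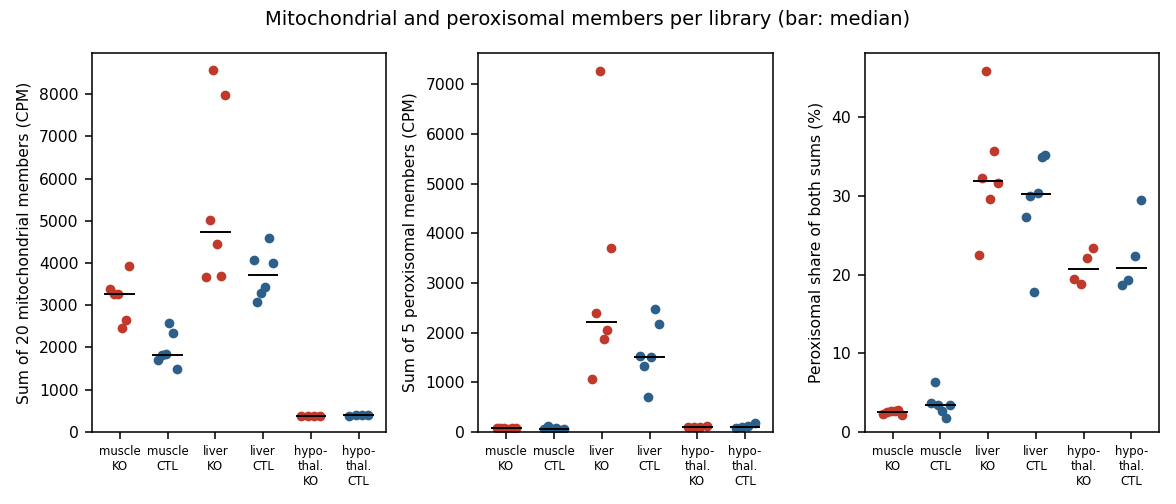
Summed CPM of the 20 mitochondrial members, left, of the 5 peroxisomal members, middle, and the peroxisomal share of both sums in percent, right, with 1 point for each library and a bar at the group median. Cpt1b and Etfb, listed at 0 throughout, are among the 20 and add nothing to the sums. Linear axes start at 0. Hypothalamus has the lowest mitochondrial sums and muscle the lowest peroxisomal shares.

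In hypothalamus no member passed. Of 32 tested, 0 were called, as were 0% of all 13504 genes in the higher and 0% in the lower direction by edgeR, and 0 by DESeq2. At an unadjusted p under 0.05 there were 211 genes (1.56%), among them 1 member, Slc27a2, a transport protein and very-long-chain synthetase. Slc27a2 had 4.56, 3.61, 2.83 and 2.9 CPM in COX10 KO hypothalamus and 5.22, 5.55, 4.55 and 6.08 CPM in CTL hypothalamus (log2 fold change -0.62 ± 0.28 SE, adjusted p = 1). The median log2 fold change of the members was -0.08, against -0.01 over all genes tested. Fabp3 had 56.2, 79.9, 83 and 80.9 CPM in COX10 KO and 47.2, 72.3, 67.8 and 52.8 CPM in CTL libraries (log2 fold change 0.32 ± 0.20 SE, adjusted p = 1), and COX10 KO library 1 was the lowest of its group. For Fabp3, CTL library 1 was likewise the lowest of its group. Fabp1 had 0 counts in all 8 libraries, where 3 counts over the group would be 0.162 CPM in COX10 KO and 0.085 CPM in CTL hypothalamus.

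The tissues themselves differed far more than the genotypes. Between CTL muscle and CTL liver, 6 members were higher in muscle and 24 lower, of 37 tested, in 1 fit of all 6 groups (28.6% and 26.6% of 15154 genes). All 5 peroxisomal members and 11 of 18 mitochondrial members tested were lower in muscle. With libraries labelled male only, 6 members were higher and 18 lower (3556 and 3420 of 15275 genes). All 5 peroxisomal members and 6 mitochondrial members were among the lower. This subset holds CTL liver 4, whose Xist counts went against its label, and leaves out CTL liver 1. The calls of Acads, Acsl3, Slc25a20, Hadh, Decr1 and Etfdh were lost there (adjusted p = 0.0535 to 0.37). That of Acsl3 was also lost under DESeq2 (0.0525), relative log expression factors (0.0566) and no filter (0.0564). Leaving out CTL liver 2, 3 or 4 or CTL muscle 1, 3 or 5 ended it too (0.052 to 0.113). The Etfdh call was also lost in 10 other alternatives, DESeq2 (0.0696) and relative log expression factors (0.0626) among them, that of Acads without CTL muscle 1 or 4 or CTL liver 2 (0.0555 to 0.08), that of Etfa without CTL liver 6 (0.0554) and those of Etfa and Hadh with the replicate block (0.0526 and 0.0534). The COX10 KO tissues gave 8 higher and 24 lower (28.2% and 26.6% of genes). The members called higher in COX10 KO muscle against COX10 KO liver included Acadl (log2 fold change 0.98, adjusted p = 0.042) and Hadhb (1.22, 0.00282), whose CTL contrasts were -0.13 (0.825) and 0.63 (0.117). Both calls were lost with libraries labelled male only (log2 fold change 0.35, adjusted p = 0.67 for Acadl and 0.77, 0.251 for Hadhb). The Acadl call was also lost without COX10 KO liver 1, 2, 3 or 5 or COX10 KO muscle 1, 2, 3 or 6 (adjusted p = 0.062 to 0.115) and with at least 10 counts in every library (0.0718), and neither gene passed in the test of genotype by tissue given above. Against CTL hypothalamus, 25 members were higher and 4 lower in CTL muscle (26.6% and 36.7% of genes), and 31 higher and 5 lower in CTL liver (29.4% and 39.4%). These CTL contrasts share their libraries, and hypothalamus holds males only. The median over all genes was -0.25 for muscle and -0.23 for liver on the log2 scale, and -0.36 and -0.40 with the scaling factors of relative log expression.

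**Figure D5:**
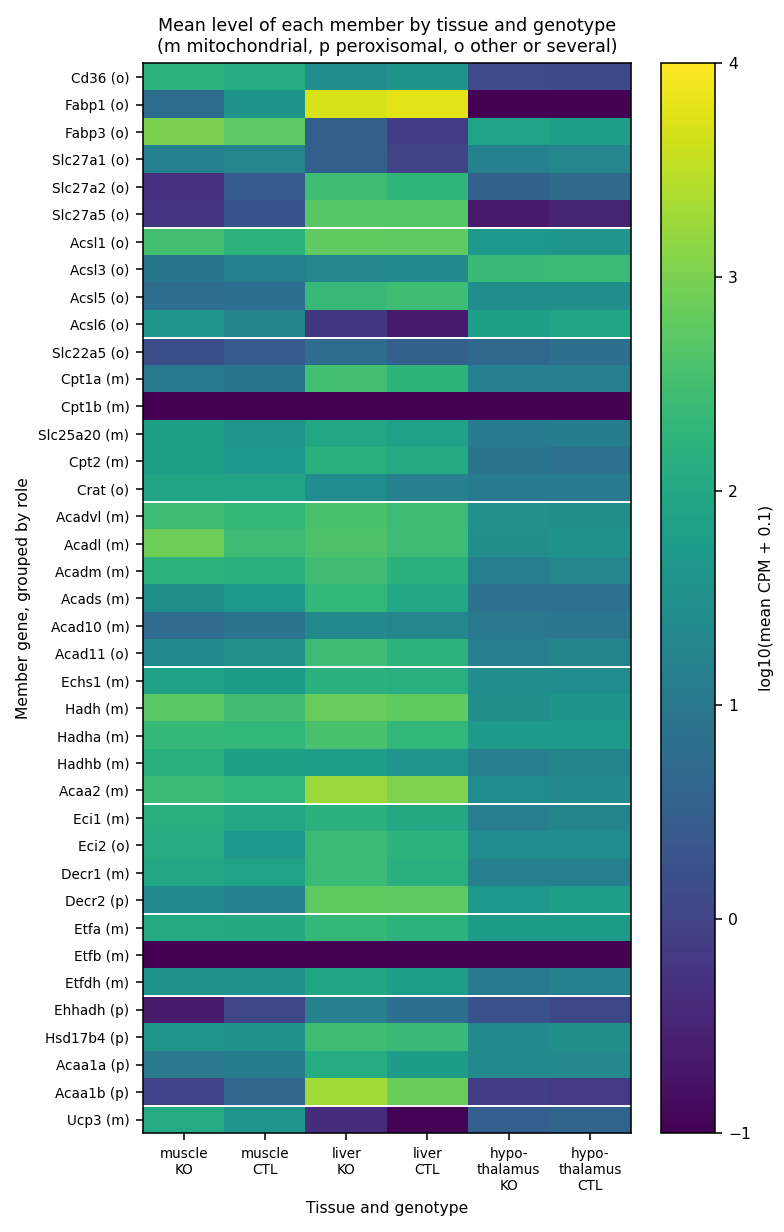
Mean level of each member by tissue and genotype as log10 of mean CPM plus 0.1 (colour), with members in rows grouped by role and marked as mitochondrial (m), peroxisomal (p) or other (o). Fabp1 is brightest in liver and Fabp3 in muscle, and the dark rows of Cpt1b and Etfb are those listed at 0 throughout.

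The uptake genes split by tissue. Fabp3 stood at 183 to 999.8 CPM in CTL muscle and at most 2.05 CPM in CTL liver (log2 fold change of muscle over liver 9.51, adjusted p = 4.13e-12), while Fabp1 was 0.911 to 212 CPM in CTL muscle and 2543 to 10253 CPM in CTL liver (-7.74, 3.26e-06). Against CTL hypothalamus, where no Fabp1 was counted, CTL liver was at least 72764-fold higher by summed counts, taking 3 counts over the CTL hypothalamus group as the floor. Slc27a1 (4.10) and Cd36 (1.48) were higher in CTL muscle, and Slc27a2 (-8.14) and Slc27a5 (-9.47), the transport proteins of liver, were lower. Every library of CTL muscle lay below every library of CTL liver for the last pair. Among synthetases, Acsl1 had the largest share in muscle and liver but was lower in CTL muscle than in CTL liver (-1.79), Acsl5 was lower in muscle (-5.59) and Acsl6 higher (6.36). In hypothalamus Acsl3, a synthetase of lipid droplets and the endoplasmic reticulum, held 61.5 ± 4.57% of the summed synthetase counts in COX10 KO and 60.8 ± 5.94% in CTL libraries. Acsl3, Acsl5 and Acsl6 were lower in CTL muscle than in CTL hypothalamus (-3.30, -1.44 and -1.51). Slc27a2 was the other member lower in CTL muscle than in CTL hypothalamus (-2.15, adjusted p = 0.0331), a call lost without CTL muscle 1, 3, 4, 5 or 6 (0.0555 to 0.0982) and under DESeq2 (0.346).

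Among the enzymes of oxidation, members of both compartments were lower in CTL muscle than in CTL liver. Cpt1a was lower in CTL muscle than in CTL liver (-4.60, adjusted p = 5.33e-12), as were Acaa2 (-2.55), Echs1 (-1.47), Eci2 (27.3 to 61.3 CPM in CTL muscle and 101 to 371 CPM in CTL liver) and the peroxisomal Decr2 (-5.40), Hsd17b4 (-2.85), Acaa1a (-2.13), Acaa1b (-8.58) and Ehhadh (-2.96). Acadvl, Acadl, Acadm, Hadha, Hadhb, Eci1 and Slc22a5 did not pass between CTL muscle and CTL liver, with log2 fold changes from -0.51 to 0.63. Crat (2.48) and Ucp3 were higher in CTL muscle. Ucp3 had 735 counts over the CTL muscle libraries and 1 count over the CTL liver libraries, a ratio of 1044 per library size (95% interval 187 to 41303). Against CTL hypothalamus, 17 of 18 mitochondrial members tested were higher in CTL muscle, and 17 of 18 in CTL liver. In CTL liver the exception was Ucp3, which was lower. For CTL muscle it was Cpt1a, which did not pass (-0.13, adjusted p = 0.805), and the Acad10 call was lost in 11 alternatives, DESeq2 among them (0.115). Of the 5 peroxisomal members, all were higher in CTL liver, and only Hsd17b4 passed in CTL muscle (1.02, adjusted p = 0.0483), a call lost when any 1 CTL library of either tissue other than CTL muscle 5 was left out (0.0553 to 0.153), and under the other filters, the other scaling, DESeq2 and males alone (0.0589 to 0.365). Decr2 had 7.29 to 38.7 CPM in CTL muscle and 33.1 to 113 CPM in CTL hypothalamus (-1.37, 0.0548) and passed as lower without CTL muscle 2 (0.0225) and in 7 other alternatives (0.00965 to 0.0433).

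Sex was a labelled condition in muscle and liver. The genotype differences did not differ between the sexes by test in any member: 0 of 33 were called in muscle and 0 of 33 in liver (0% of 12065 genes in muscle and 0% of 10030 in liver). At an unadjusted p under 0.05 there were 459 genes (3.8%) in muscle and 123 (1.23%) in liver, and DESeq2 called 4 genes in muscle, none a member, and 0 in liver. Males over females, no member was called in muscle (0.0602% of genes tested) or, by the labels, in liver (0%; 944 genes, 9.72%, at an unadjusted p under 0.05, and 1 gene by DESeq2). With the sex of CTL liver 1 and CTL liver 4 read from their Xist and Y-linked transcripts, 10 members were higher and 2 lower in male liver (13% and 9.48% of genes). Decr2 had 328 to 1518 CPM (median 956) in 6 males and 47.5 to 458 CPM (median 225) in 6 females, ranges that overlapped (log2 fold change 2.14, adjusted p = 0.0101). Acadl (1.44), Hadh (1.34), Fabp1 (1.19), Acad11, Acsl5, Acadm, Slc27a2, Hsd17b4 and Etfa were also higher in males, and Hadha (-1.06) and Acads (-1.26) lower. Without these libraries, 1 member was called, Decr2 (log2 fold change 1.98, adjusted p = 0.046).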

How the data were processed

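RNA of calf muscle, liver and hypothalamus was made into libraries with the Lexogen QuantSeq 3′ FWD kit. The deposited files hold raw counts per Ensembl gene, which the authors made by trimming reads with BBDuk, aligning them with STAR 2.5.0a to GRCm38.p6 and counting with HTSeq 0.6.1. HTSeq's strand setting is not given in the sources used here, so that reads of genes overlapping on opposite strands may not have been separated. Groups were taken from the labels. Rows that name no gene stayed out of library sizes.

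Counts were tested with edgeR 4.0.16 in R 4.3.3 (quasi-likelihood F test, two-sided, TMM factors, filterByExpr), with Benjamini-Hochberg adjustment over all genes of a fit and a call at an adjusted p under 0.05. Genotype was tested within each tissue with a term for labelled sex in muscle and liver, genotype by tissue in 1 fit of muscle and liver, and tissues in 1 fit of all 6 groups. The fits were tested on simulated data. Summaries used Python 3.11.15 and scipy 1.17.1.

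Alternatives were relative log expression factors, no filter, at least 10 counts in every library, DESeq2 1.42.0, a replicate block, no sex term, single sexes, sex of liver libraries read from transcripts, and leaving out each library or both mismatched CTL liver libraries. Same-numbered COX10 KO and CTL libraries deviated together in hypothalamus (correlations 0.885, 0.338, 0.570 and 0.407 for numbers 1 to 4), though number 4 correlated more with another number (0.626), and not in muscle or liver. The labels do not say what the numbers share.

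All 39 members are named, with full values for those called between genotypes and for tissue-specific partners, and from the 5 further pathway lists and 11 marker lists the called genes, at most 4 by p. The members and lists were chosen with earlier results of these data known. Total counts ran from 434494 to 22321322 per library. Floors and the intervals of ratios of summed counts cover counting error only. Intervals of log2 fold changes come from the edgeR standard error between libraries and a t quantile at the degrees of freedom of the test.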

Additional observations from a re-analysis of the deposited data

Results flagged for a closer look

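In 27 of 205 groups of 4 or 6 libraries with at least 10 counts of a member, the highest or lowest library stood apart by Dixon's test at the 95% level. The rate of about 1 in 20 that this level names assumes normally distributed values and independent groups. The groups here share their libraries, so that 27 cannot be set against that rate. The part of other cells, depth or the animal in the values that stood apart was not tested. CTL muscle 2, the shallowest muscle library, with 2563 CPM of hepatocyte markers, held Fabp1 at 212 CPM (0.911 to 6.55 CPM in the others), Acsl5 at 12.9 CPM (4.04 to 7.34 CPM in the others), Echs1 at 33.2 CPM (52 to 60.1 CPM in the others), Decr2 at 38.75 CPM (7.29 to 18.4 CPM in the others) and Acaa1b at 22.1 CPM (0 to 2.18 CPM in the others). All are high except Echs1, which is low. COX10 KO muscle 4, with 376 CPM of hepatocyte markers, was high for Fabp1 at 23.3 CPM (0.81 to 3.72 CPM in the others), Slc27a2 at 1.88 CPM (0 to 0.237 CPM in the others), Crat at 119 CPM (81.15 to 91.8 CPM in the others), Acaa2 at 332 CPM (229.9 to 265 CPM in the others) and Acaa1b at 4.11 CPM (0 to 0.795 CPM in the others). The other muscle values were Acadvl at 213 CPM (271 to 299 CPM in the others) in COX10 KO muscle 3, Eci2 at 146.5 CPM (107.5 to 119.5 CPM in the others) in COX10 KO muscle 6, and Hadhb at 128.5 CPM (40.6 to 63.8 CPM in the others) in CTL muscle 4.

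COX10 KO liver 3, the shallowest liver library, was high for Acads at 637 CPM (57.8 to 186 CPM in the others), Acaa2 at 4462 CPM (963 to 1394 CPM in the others), Acaa1a at 365 CPM (24 to 115 CPM in the others) and Acaa1b at 6786 CPM (407 to 1589 CPM in the others). COX10 KO liver 6 was high for Slc27a2 at 564 CPM (159 to 305 CPM in the others) and Eci1 at 332 CPM (77.5 to 166 CPM in the others). In CTL liver 5, Cpt1a at 320.5 CPM (109.6 to 172 CPM in the others) and Eci2 at 371 CPM (101 to 171 CPM in the others) were high, and in CTL liver 2, Acsl1 at 429 CPM (557 to 629 CPM in the others) was low. COX10 KO hypothalamus 1 had Fabp3 at 56.2 CPM (79.95 to 83 CPM in the others), Acsl1 at 61.8 CPM (39.8 to 41.9 CPM in the others) and Slc22a5 at 9.33 CPM (3.01 to 3.57 CPM in the others), the binding protein low and the others high. CTL hypothalamus 1 also had the lowest Fabp3 of its group. In CTL hypothalamus, library 2 had Acad10 at 10.7 CPM (8.51 to 8.88 CPM in the others) and library 4 Hadhb at 28.2 CPM (12.75 to 14.6 CPM in the others). By edgeR with all libraries and the labelled sex, no member's genotype effect differed between the sexes or between muscle and liver, while Ehhadh and Acads passed between the tissues in some of the alternatives.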

How the results depend on the processing

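In muscle, 7 members were higher and 0 lower. Leaving out 1 library at a time gave 5 to 8 higher and 0 to 1 lower, the 1 being Acads without CTL muscle 4. Higher members, with all genes called higher in brackets, numbered 10 (1033) with DESeq2 and 9 (1061) with no filter. They numbered 8 (563) with at least 10 counts in every library, 9 (910) without the sex term and 8 (992) with DESeq2 and no sex term. Relative log expression factors gave 7 (789). In females alone 3 (163) were higher and in males alone 1 (157), where each group holds 3 mice. The fit with 7 higher members called 803 genes higher, and some of these fits tested other numbers of genes. The 1 lower member was Fabp1 with no filter, and Ehhadh with DESeq2, with or without the sex term. No called member changed direction.

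The replicate block gave 5 higher members in muscle: Cpt2 (adjusted p = 0.102) and Hadh (0.0535) were lost, and all genes called numbered 533 higher and 454 lower, against 803 and 865 without it. In muscle and liver the samples share only a number. In hypothalamus, where the numbers deviated together, the block called 2 genes, both higher, and no member, and it changed no other call of a member in a genotype comparison.

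No member was called in liver or hypothalamus under any alternative run. For genotype by tissue, members called lower were 2 with no filter and with DESeq2 (Ehhadh and Acads), 1 without the sex term, with sex read from transcripts and without both mismatched libraries (Ehhadh), and 0 to 1 when leaving out 1 library. Liver sex gave 10 members higher and 2 lower with sex read from transcripts and 1 higher without the mismatched libraries, against 0 by the labels. Requiring at least 10 counts in every library left 21 members in the tissue contrasts. Of these, 1 was higher and 14 lower in CTL muscle against CTL liver (804 and 921 of 2831 genes). In COX10 KO muscle against COX10 KO liver 2 were higher (826 genes higher and 1004 lower). The members lower there, not counted here, included Acadm, Acadvl and Hadha. In CTL muscle against CTL hypothalamus 1 was lower, and the members higher there are not counted here (898 genes higher and 964 lower). In CTL liver against CTL hypothalamus 20 were higher and 0 lower (941 and 946 genes).

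Counts over all genes moved more. Muscle gave 548 lower with at least 10 counts in every library, 163 higher and 134 lower in females, and 157 and 124 in males. Liver gave 57 higher and 118 lower with no filter, 0 and 0 with at least 10 counts in every library, 23 and 39 with DESeq2, and 8 and 20 with sex read from transcripts, against 2 and 7. Genotype by tissue gave 324 and 266 with no filter, 69 higher with at least 10 counts, 296 and 418 with DESeq2, 53 and 31 with the block within tissue, and 208 and 237 with sex read from transcripts, against 119 and 115. The cause of these shifts was not tested, apart from fewer genes or libraries where the alternative removes them. Depth limits Ehhadh, Slc27a2, Slc27a5 and Acaa1b in muscle and Fabp3, Slc27a1, Acsl6 and Ucp3 in liver.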
